A study of Homo sapiens with 9 samples.

Results

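The aminoacyl-tRNA synthetases are the enzymes that join each amino acid to its own tRNA before the ribosome can use it. The genes examined here were picked by name, 19 encoding the cytosolic enzymes and 16 encoding their mitochondrial counterparts, which makes 35 genes of the 60880 gene IDs in each library. The rule uses names alone, but it was set with earlier results of these libraries known. All are nuclear genes, and the mitochondrial enzymes are made in the cytosol and imported to serve translation inside the mitochondrion. Some cytosolic synthetases are held together with scaffold proteins in the multisynthetase complex, and others work on their own. When amino acids run short or proteins misfold, the stress-response transcription factor ATF4 is known to raise the transcription of many cytosolic synthetase genes.

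Poly-A RNA was sequenced from SNU5, an established line of human gastric carcinoma. The NR group was treated with AuNR-PEG-Ab, gold nanorods joined through polyethylene glycol to ramucirumab, the SP group with AuSP-PEG-Ab, the spherical gold particles carrying the same antibody, and the Ab group with ramucirumab alone. Ramucirumab is a monoclonal antibody against VEGFR2. All 3 groups received 8 μg/mL of antibody for 24 h, with 3 libraries per group and 9 in all, and no untreated cells, no particles without antibody and no antibody with polyethylene glycol alone were analysed here. The antibody was therefore common to all groups, and the comparisons ask what differs when it is carried on a coated gold particle and whether the shape of the particle matters. Gold and polyethylene glycol come together in NR and SP, so their parts cannot be told apart. By library number, the NR group held 25735410, 13863155 and 15943980 counts, the SP group 21682836, 22914759 and 20601906, and the Ab group 19566064, 26318227 and 21031024. All libraries are titled gastric cancer cells, and the study's methods name SNU5 as the source of the RNA. The study calls its replicates biological and its experiments in vitro independent, while the labels do not say that the libraries of a group came from separate cultures. The p-values measure the spread between these libraries, which may be technical if they did not.

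Values below are CPM, the deposited counts brought to one common library total. A gene was past the test when its adjusted p from edgeR's quasi-likelihood test was at most 0.05, and it was called when its change was also at least 2-fold, the rule of the study. Positions are on GRCh37. In bulk RNA, fewer cells of a type and less RNA per cell cannot be told apart, and a level is a share of the adjusted library total.

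The labelled cell type was checked against epithelial markers. KRT8, an epithelial keratin, gave the most counts of the 10 gastric epithelial markers, at 1868, 1887 and 1926 CPM in NR libraries 1, 2 and 3, 2030, 1950 and 1966 CPM in SP, and 667, 632 and 645 CPM in Ab. Another keratin gene, KRT19, and the trefoil factor gene TFF3 were at or under 3 counts in every library. CDH1, which encodes E-cadherin, was at 0.256, 0.189 and 0.430 CPM in the Ab libraries and at 5.499 to 7.26 CPM in the NR and SP libraries. The epithelial list was thus present only in part, with 6 of the 10 genes passing the filter on low counts in each comparison. Of these 6, 4 were past the test as higher in NR and in SP, where 36.4% of all genes tested were. At 2-fold, 3 were called higher in each, where 12.4% of all genes in NR and 12.6% in SP were. The list was lower in the Ab libraries as a sum (892 to 960 CPM, against 2272 to 2415 CPM in NR and SP), a sum mostly of KRT8. The claudin genes CLDN4 (log2 0.091 in NR and 0.093 in SP) and CLDN7 (-0.13 and -0.17) were not past the test. Of the 6 fibroblast markers, DCN, LUM and PDGFRB differed in the same direction as CDH1, each by more than 10-fold. The collagen genes COL1A1, COL1A2 and COL3A1 were not past the test, with COL1A1 higher and COL1A2 lower in NR and SP. Whether the Ab libraries hold the same cells as the NR and SP libraries was not tested, and this bears on every comparison with Ab below.

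For 3 members the counts were too few or too uneven to be read as levels, and these are described first. VARS1, the cytosolic valyl-tRNA synthetase, had 43 to 79 counts in every library but Ab library 2, where it had 633. Of the 14 protein-coding genes within 60 kb of VARS1, 12 were at or under 5 counts in every library. VARS2, its mitochondrial counterpart on the same chromosome arm, had 8 to 22 counts, all 5 of its protein-coding neighbours within 60 kb were at or under 5 counts everywhere, and other genes share 63.0% of its exon bases. SARS2, the mitochondrial seryl-tRNA synthetase, had 0 to 11 counts, and an overlapping gene, at 0 counts in every library, shares 48.2% of its exon bases. Unlike those of VARS1 and VARS2, its neighbours had counts, with 1 of 8 protein-coding genes within 60 kb at or under 5 counts in every library. SARS2 did not pass the filter on low counts and is not among the genes tested below. With at least 1 count in total as the filter, its log2 fold change was -1.50 in NR (adjusted p = 0.0750) and -2.17 in SP (adjusted p = 0.0121), a value that rests on these few counts. The other 32 members had between 9.03 and 1562 CPM in all libraries.

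The synthetases took less of the transcriptome in both nanoparticle groups than in the Ab group. The 35 genes held 0.521% to 0.530% of all counts in the NR libraries, 0.528% to 0.540% in SP and 0.864% to 0.905% in Ab. The fall came from the cytosolic genes. Their summed level was 4267, 4193 and 4112 CPM in NR libraries 1, 2 and 3, 4257, 4179 and 4240 CPM in SP, and 7851, 8169 and 8182 CPM in Ab. The NR and SP means were 0.519 and 0.524 times the Ab mean. The mitochondrial genes went the other way, at 1077 ± 10.7 CPM (SD, n = 3) in NR, 1112 ± 13.8 in SP and 812 ± 9.27 in Ab, which is 1.33 and 1.37 times the Ab mean. In neither sum did the nanoparticle libraries overlap the Ab libraries.

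**Figure D1:**
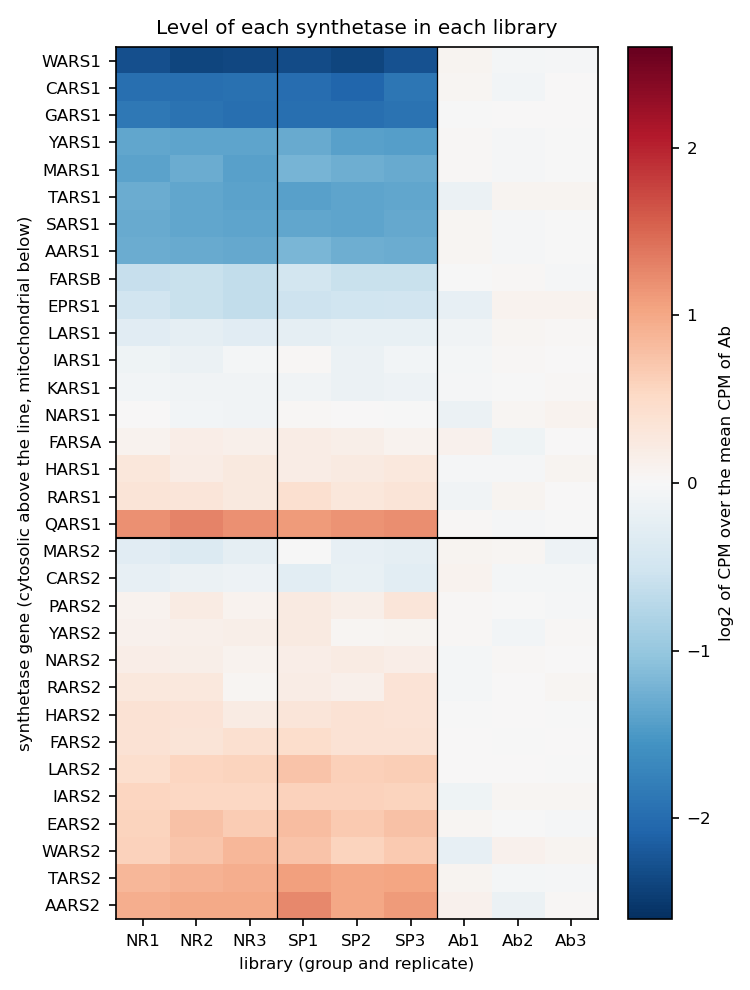
Level of each synthetase gene (rows) in each of the 9 libraries (columns), coloured by log2 of its CPM over the mean CPM of the Ab group, for the 32 genes with readable counts. Cytosolic genes stand above the horizontal line and mitochondrial genes below it, and the blue block at the top left holds the 8 cytosolic genes that were lower by 2-fold or more in the NR and the SP group.

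In the NR group, 13 of the 19 cytosolic synthetases were past the test as lower than in the Ab group and 3 as higher, and 3 were not past it. Of all 15009 genes tested in this comparison, 36.4% were past as lower and 36.4% as higher. At 2-fold, 8 cytosolic genes were called lower and 1 higher, where 10.3% of all genes tested were called lower and 12.4% higher. In the SP group, 12 cytosolic genes were past as lower and 4 as higher, with 8 called lower and 1 higher. There the shares over the 15068 genes tested were 36.6% past as lower, 36.4% past as higher, 10.6% called lower and 12.6% called higher. As a median, the cytosolic genes changed by -0.63 in NR and -0.57 in SP on the log2 scale, beside -0.0055 and -0.0067 over all genes tested. In NR, 13 cytosolic genes had all libraries below all Ab libraries and 3 had all above, where 35.8% and 38.8% of all genes did. In SP these were 12 and 3 genes, where 36.0% and 39.0% of all genes did. The 3 Ab libraries enter both comparisons, which are therefore not independent.

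WARS1, the cytosolic tryptophanyl-tRNA synthetase, known also as an interferon-induced gene, fell most (minus strand, chr14:100800127-100843142). It was at 106, 99.0 and 100.04 CPM in NR libraries 1, 2 and 3, at 103, 98.2 and 107 CPM in SP, and at 541, 501 and 506 CPM in Ab. All 6 nanoparticle libraries lay far below the lowest Ab library, and NR and SP overlapped. The log2 fold change was -2.37 ± 0.047 (SE) in NR, or 5.17-fold lower (adjusted p = 1.43e-25), and -2.36 ± 0.049 in SP, or 5.13-fold lower (adjusted p = 1.39e-24). Other genes share 10.6% of its exon bases, and the sources used here do not say whether reads were counted by strand.

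CARS1, the cysteinyl-tRNA synthetase (minus strand, chr11:3022152-3078843), was at 59.9, 59.6 and 60.7 CPM in NR, 59.0, 56.2 and 63.8 CPM in SP, and 242, 223 and 234 CPM in Ab. The libraries of each group lay close together, and the Ab group stood alone. Its log2 fold change was -1.98 ± 0.049 in NR (adjusted p = 2.13e-23) and -1.99 ± 0.055 in SP (adjusted p = 6.73e-22).

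GARS1 encodes the glycyl-tRNA synthetase and serves the cytosol and the mitochondrion from the same gene (plus strand, chr7:30620149-30673649). It was at 352, 338 and 326 CPM in NR, 327, 328 and 338 CPM in SP, and 1256, 1286 and 1272 CPM in Ab. The Ab libraries stood alone again, with NR and SP at one level. The change was 3.82-fold lower in NR (log2 -1.94 ± 0.042, adjusted p = 8.20e-25) and 3.91-fold lower in SP (log2 -1.97 ± 0.043, adjusted p = 2.93e-24). KARS1, the lysyl-tRNA synthetase and the other gene that serves both compartments, moved little. It was at 355, 348 and 349 CPM in NR, 352, 337 and 340 CPM in SP and 367, 371 and 380 CPM in Ab, with no overlap with Ab. Its log2 fold change was -0.11 ± 0.041 in NR (adjusted p = 0.0153) and -0.15 ± 0.043 in SP (adjusted p = 0.00354). Without Ab library 3, the NR value was -0.10 and no longer past the test (adjusted p = 0.0724).

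YARS1, the tyrosyl-tRNA synthetase (minus strand, chr1:33240838-33283632), was at 235, 232 and 233 CPM in NR, 243, 226 and 224 CPM in SP, and 618, 592 and 595 CPM in Ab. TARS1, the threonyl-tRNA synthetase (plus strand, chr5:33440802-33468196), was at 607, 578 and 566 CPM in NR, 556, 571 and 585 CPM in SP, and 1332, 1558 and 1562 CPM in Ab. In both genes the nanoparticle groups overlapped each other and not the Ab group, and Ab library 1 was the lowest Ab library of TARS1. The fold change of YARS1 was 2.63-fold lower in NR and 2.66-fold lower in SP (adjusted p = 1.22e-21 and 1.92e-20). TARS1 was 2.59-fold lower in NR and 2.65-fold lower in SP (adjusted p = 6.50e-14 and 1.07e-16).

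The other 3 cytosolic genes called lower fell to a like extent. SARS1, the seryl-tRNA synthetase, was at 218 ± 4.32 CPM (SD, n = 3) in NR, 216 ± 2.09 in SP and 552 ± 14.9 in Ab. MARS1, the methionyl-tRNA synthetase, was at 135 ± 5.75, 144 ± 4.39 and 346 ± 6.70 CPM, and AARS1, the alanyl-tRNA synthetase, was at 264 ± 3.68, 275 ± 9.86 and 653 ± 20.4 CPM. The log2 fold changes of SARS1, MARS1 and AARS1 were -1.36, -1.39 and -1.33 in NR and -1.38, -1.29 and -1.27 in SP. Other genes share 12.4% of the MARS1 exon bases.

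FARSB, EPRS1, LARS1 and KARS1 were past the test as lower in both groups at less than 2-fold. FARSB, the beta subunit of the cytosolic phenylalanyl-tRNA synthetase, changed by -0.63 in NR and -0.57 in SP on the log2 scale, while its partner FARSA, the alpha subunit, was at 0.11 in NR (adjusted p = 0.0600) and 0.12 in SP (adjusted p = 0.0457). EPRS1, which joins glutamate and proline to their tRNAs in a single fused protein, changed by -0.60 and -0.54, and LARS1, the leucyl-tRNA synthetase, by -0.30 and -0.23. IARS1, the isoleucyl-tRNA synthetase, was past the test in NR (-0.12, adjusted p = 0.0138) and not in SP (-0.091, adjusted p = 0.0970). NARS1, the asparaginyl-tRNA synthetase, had log2 fold changes of -0.078 and -0.015 and overlapped the Ab group in both comparisons. VARS1, with log2 values of -1.71 in NR and -1.62 in SP that were not past the test (adjusted p = 0.304 and 0.300), went to 0.51 and 0.59 without Ab library 2 (adjusted p = 0.0904 and 0.0283).

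QARS1, the glutaminyl-tRNA synthetase, was the cytosolic gene called higher (minus strand, chr3:49133365-49142563). It was at 235, 253 and 236 CPM in NR libraries 1, 2 and 3, 222, 232 and 241 CPM in SP, and 106, 102 and 103 CPM in Ab. Each nanoparticle library was above 2 times the highest Ab library. The change was 2.29-fold in NR (log2 1.19 ± 0.047, adjusted p = 7.57e-19) and 2.20-fold in SP (log2 1.14 ± 0.049, adjusted p = 9.16e-18). Smaller rises past the test in both groups were those of RARS1, the arginyl-tRNA synthetase (0.27 in NR and 0.33 in SP), and HARS1, the histidyl-tRNA synthetase (0.22 and 0.21).

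**Figure D2:**
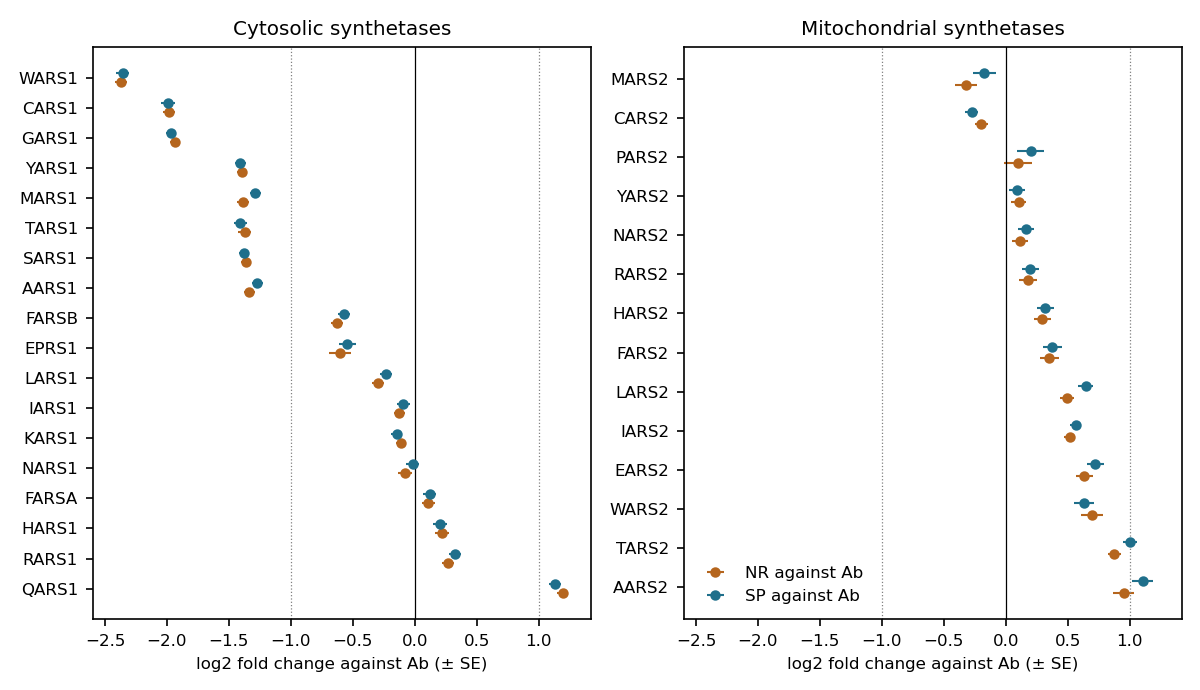
Log2 fold change of each synthetase gene against the Ab group, with its standard error, for NR (orange) and SP (blue), cytosolic genes on the left and mitochondrial genes on the right, with dotted lines at 2-fold. WARS1, CARS1 and GARS1 lie near or past -2 and QARS1 is the cytosolic gene beyond the line on the right.

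The cytosolic genes were then split by known properties of the enzymes. Of the 7 synthetases of the multisynthetase complex (EPRS1, IARS1, KARS1, LARS1, MARS1, QARS1 and RARS1), 1 was called lower in each comparison, MARS1, where 10.3% of all genes were called lower in NR and 10.6% in SP. Of the 12 cytosolic genes outside the complex, 7 were called lower in each comparison. Within the complex the median was -0.12 on the log2 scale in NR and -0.15 in SP, and outside it -1.37 and -1.39. The difference between these sets was not tested. Of the 2 structural families of these enzymes, 4 of 10 cytosolic class I genes and 4 of 9 cytosolic class II genes were called lower in each comparison. Among the non-catalytic scaffold proteins of the complex, AIMP2 was at 57.2, 55.5 and 51.2 CPM in NR, 55.5, 56.0 and 54.4 CPM in SP and 33.7, 34.2 and 36.5 CPM in Ab. It rose by 0.63 ± 0.064 on the log2 scale in NR (adjusted p = 9.39e-10) and by 0.64 ± 0.062 in SP (adjusted p = 4.07e-10). Other genes share 29.1% of the AIMP2 and 18.8% of the EEF1E1 exon bases. AIMP1 was at -0.030 and -0.0088 (adjusted p = 0.756 and 0.923) and EEF1E1 at -0.27 and -0.30 (adjusted p = 0.0789 and 0.0501). Without Ab library 1, EEF1E1 was past the test as lower in NR (-0.38, adjusted p = 0.0125) and SP (-0.42, adjusted p = 0.00913), and AIMP1 was past it in NR (-0.13, adjusted p = 0.0302). In SP, EEF1E1 was also past it with the replicate block (adjusted p = 0.0490), with all 9 libraries in one fit (0.0431), with at least 10 counts in every library (0.0469) and without SP library 3 (0.0289).

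The order of levels among the synthetases differed between groups. To compare genes, CPM was divided by the length of the canonical transcript in kb. In the Ab group the highest levels per kb were those of TARS1 (555 CPM per kb), GARS1 (522), SARS1 (288), YARS1 (246), WARS1 (196) and AARS1 (190), followed by KARS1 (187). WARS1, AARS1 and KARS1 lay within a small distance of each other. In the NR group the order was TARS1 (218 CPM per kb), KARS1 (176), GARS1 (139), IARS2 (124), RARS1 (115), SARS1 (114) and QARS1 (98.5). RARS1 and SARS1 were nearly equal there. WARS1 went from rank 5 in Ab to rank 18 of 32 in NR and 19 in SP, and QARS1 from rank 18 to 7 in NR and 8 in SP. In SP the first 6 genes stood in the same order as in NR.

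Of the 16 mitochondrial synthetases, 15 were tested. In NR, 9 were past the test as higher than in Ab, 2 as lower, and 4 were not past it, with none called at 2-fold (11 had an unadjusted p below 0.05, where 74.5% of all genes did, and DESeq2 called 0 higher). In SP, 10 were past as higher and 2 as lower, with 2 called higher, AARS2 and TARS2. The shares over all genes were those given above for each comparison. On the log2 scale their median was 0.30 in NR and 0.32 in SP. Without VARS2 and SARS2 it was 0.32 and 0.35, and 1 gene was past as lower in SP.

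AARS2, the mitochondrial alanyl-tRNA synthetase (minus strand, chr6:44266468-44281084), was at 30.03, 30.8 and 30.7 CPM in NR, 37.1, 31.2 and 33.3 CPM in SP, and 16.8, 14.03 and 15.8 CPM in Ab. All nanoparticle libraries lay above the Ab libraries, and SP library 1 was the highest. The log2 fold change was 0.95 ± 0.082 in NR (1.93-fold, adjusted p = 2.84e-11) and 1.10 ± 0.087 in SP (2.15-fold, adjusted p = 5.53e-12). TARS2, the mitochondrial threonyl-tRNA synthetase (plus strand, chr1:150459890-150480078), was at 96.6, 98.8 and 101 CPM in NR, 110, 106 and 108 CPM in SP, and 55.4, 51.1 and 52.1 CPM in Ab. It was 1.84-fold higher in NR (log2 0.88 ± 0.055, adjusted p = 2.42e-14) and 2.01-fold higher in SP (log2 1.01 ± 0.057, adjusted p = 5.37e-15). In SP the change of TARS2 was so close to 2-fold that it was under it without SP library 1 (log2 0.98), Ab library 2 (0.98) or Ab library 3 (0.99). In NR, AARS2 came to 2-fold without Ab library 1 (1.01).

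WARS2, the mitochondrial tryptophanyl-tRNA synthetase (minus strand, chr1:119573839-119683277), was at 38.8, 42.1 and 46.9 CPM in NR, 42.8, 38.1 and 40.8 CPM in SP, and 22.2, 27.8 and 26.9 CPM in Ab. EARS2, the mitochondrial glutamyl-tRNA synthetase (minus strand, chr16:23532075-23569052), was at 42.0, 47.5 and 44.2 CPM in NR, 49.0, 45.2 and 47.8 CPM in SP, and 29.1, 27.8 and 27.5 CPM in Ab. All nanoparticle libraries were above all Ab libraries in both genes. WARS2 rose by 0.70 ± 0.086 in NR and 0.63 ± 0.079 in SP on the log2 scale, and EARS2 by 0.63 ± 0.069 and 0.72 ± 0.067. LARS2, the mitochondrial leucyl-tRNA synthetase (plus strand, chr3:45430053-45596218), was at 74.1, 80.7 and 81.6 CPM in NR, 92.2, 84.0 and 86.1 CPM in SP, and 55.1, 55.1 and 54.5 CPM in Ab. Its log2 fold change was 0.49 ± 0.057 in NR (adjusted p = 1.07e-08) and 0.65 ± 0.059 in SP (adjusted p = 1.20e-10). The NR libraries lay between the Ab and SP libraries without overlap.

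IARS2, the mitochondrial isoleucyl-tRNA synthetase, had the highest level per kb of the mitochondrial genes in each group. It was at 436 ± 3.40 CPM (SD, n = 3) in NR, 451 ± 3.99 in SP and 299 ± 18.0 in Ab, a rise of 0.52 and 0.56 on the log2 scale. FARS2, HARS2 and RARS2 also rose in both groups, by 0.35, 0.30 and 0.18 in NR and 0.38, 0.32 and 0.20 in SP. CARS2, the mitochondrial cysteinyl-tRNA synthetase, fell in both groups like its cytosolic counterpart but by less (-0.20 in NR and -0.27 in SP). MARS2 was past the test in NR (-0.32, adjusted p = 0.00263) and not in SP (-0.17, adjusted p = 0.0942), and NARS2 in SP (0.16, adjusted p = 0.0182) and not in NR (0.12, adjusted p = 0.0938). PARS2 and YARS2 had log2 fold changes of 0.090 to 0.20 and were past the test in neither comparison, although their nanoparticle libraries all lay above the Ab libraries. VARS2, with its 8 to 22 counts, had log2 values of -0.038 in NR (adjusted p = 0.925) and -0.95 in SP (adjusted p = 0.0307), and DESeq2 put the SP value at an adjusted p of 0.0928.

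Where an amino acid has a cytosolic and a mitochondrial enzyme from separate genes, the ratio of both genes within a library does not depend on the scaling between libraries. This ratio was taken for 13 such pairs with readable counts, of which FARSA and FARSB share FARS2. EPRS1, which serves glutamate and proline, was not paired with EARS2 or PARS2. For WARS1 over WARS2 the log2 ratio was 1.44, 1.23 and 1.09 in the NR libraries, 1.26, 1.37 and 1.39 in the SP libraries, and 4.61, 4.17 and 4.23 in the Ab libraries. The mean ratio was 8.46-fold lower in NR than in Ab and 8.00-fold lower in SP. The groups were far apart in this pair, since the cytosolic gene fell and the mitochondrial one rose. The ratio of AARS1 to AARS2 was lower by 4.87-fold in NR and 5.18-fold in SP, and that of TARS1 to TARS2 by 4.75-fold and 5.31-fold.

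**Figure D3:**
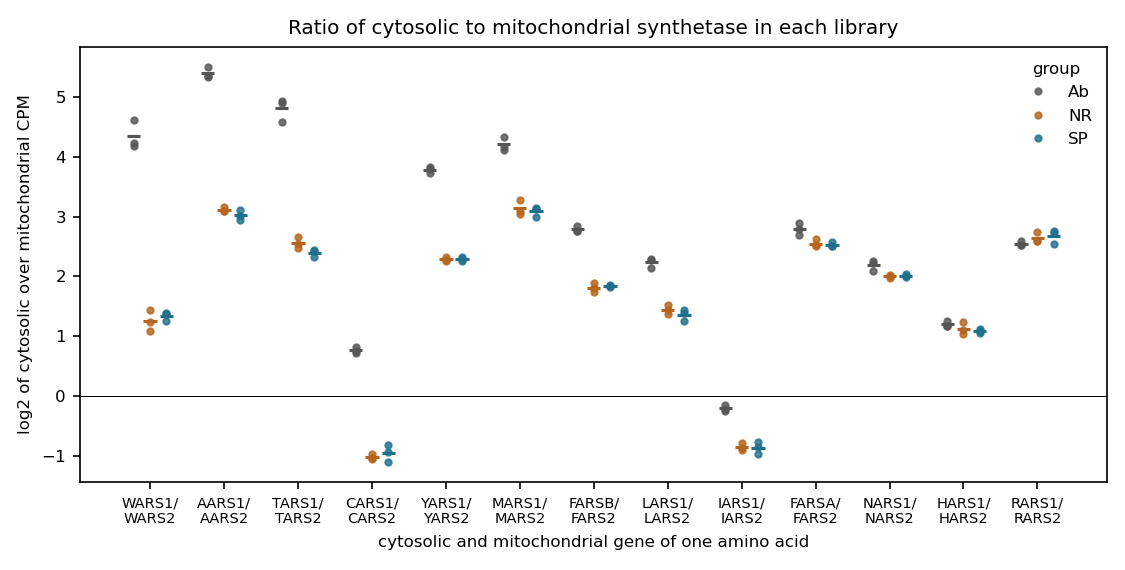
Log2 ratio of cytosolic to mitochondrial CPM in each library (points) with the group mean (bar), for 13 pairs of genes in order of the difference. For CARS1 over CARS2 the ratio is above 0 in the Ab libraries and below 0 in all NR and SP libraries.

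For CARS1 over CARS2 the log2 ratio went from 0.77 ± 0.044 (SD, n = 3) in Ab to -1.02 ± 0.041 in NR and -0.95 ± 0.14 in SP, so its sign turned in every nanoparticle library. This ratio is of CPM without division by length. In NR, 11 of the 13 ratios lay below all Ab ratios and 2 overlapped them. In SP, 12 lay below and 1 overlapped. None lay above. Of all single genes tested, 35.8% in NR and 36.0% in SP lay below all Ab libraries, and 38.8% and 39.0% above. The share among ratios of other gene pairs was not tested, so the counts of ratios have no matching background. The median difference over the 13 pairs was -0.98 in NR and -0.95 in SP on the log2 scale. RARS1 over RARS2 was the pair that overlapped Ab in both groups (differences of 0.097 and 0.13), and HARS1 over HARS2 differed by -0.073 in NR and -0.11 in SP. An exact two-sided permutation test with 3 libraries a group cannot go below p = 0.1, so no p is given for a single pair.

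HARS1 and HARS2 start from opposite strands of one stretch of chromosome 5, with 84 bases between their start sites in RefSeq (GRCh38.p14). The stretch, chr5:140691371-140691454, is shown since both genes of this pair are transcribed away from it. It is given on the plus strand, on which HARS2 reads to the right and HARS1 to the left, with no base in capitals.
HARS1-HARS2: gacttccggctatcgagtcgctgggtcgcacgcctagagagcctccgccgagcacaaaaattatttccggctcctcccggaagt

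HARS1 and HARS2 rose by like amounts, 0.22 and 0.30 on the log2 scale in NR and 0.21 and 0.32 in SP. In the GRCh37 annotation, which has other start sites, the 2 genes overlap at their starts, and other genes share 8.46% of the HARS1 and 6.99% of the HARS2 exon bases.

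The promoters of the members were searched in the RefSeq set, which holds 250 bases before and 50 after each start site on GRCh38.p14. Of the 35 members, 30 were found there, and LARS1, VARS1, YARS1, AARS2 and VARS2 were not matched. A gene with several start sites was counted when any of them had a match. The motif TGATGNAA, read on either strand, is the core of the element that ATF4 binds with C/EBP proteins in amino acid response genes. It occurred in 5 of the 7 promoters of the cytosolic genes called lower (71.4%: AARS1, CARS1, GARS1, MARS1 and TARS1), in 2 of the other 9 cytosolic genes (22.2%: IARS1 and NARS1), in 1 of 14 mitochondrial genes (7.14%: YARS2) and in 4.46% of all 27305 genes with a promoter. SARS1 and WARS1 were the called genes with a promoter and no match. The difference between these shares was not tested. The sequences of the cytosolic matches are shown so that the element can be compared between the genes, with the motif in capitals, on the strand of each gene from 5′ to 3′ and with up to 30 bases on each side.
AARS1: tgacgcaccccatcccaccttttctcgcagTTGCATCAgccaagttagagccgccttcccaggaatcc
CARS1: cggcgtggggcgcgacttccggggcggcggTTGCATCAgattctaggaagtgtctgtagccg
GARS1: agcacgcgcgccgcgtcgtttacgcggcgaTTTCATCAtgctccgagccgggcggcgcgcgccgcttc
MARS1: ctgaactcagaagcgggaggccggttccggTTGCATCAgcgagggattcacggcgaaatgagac
TARS1: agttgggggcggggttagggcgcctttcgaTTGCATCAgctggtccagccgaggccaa
IARS1: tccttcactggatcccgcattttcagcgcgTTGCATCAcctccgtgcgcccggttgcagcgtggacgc
NARS1: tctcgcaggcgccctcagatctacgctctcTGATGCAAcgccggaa

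These stretches lie at chr16:70289656-70289723 on the minus strand for AARS1, chr11:3057394-3057455 on the minus strand for CARS1, chr7:30594815-30594882 on the plus strand for GARS1, chr12:57488034-57488097 on the plus strand for MARS1, chr5:33440937-33440994 on the plus strand for TARS1, chr9:92293673-92293740 on the minus strand for IARS1 and chr18:57621807-57621852 on the minus strand for NARS1. Of the 8 members with a match, 6 held the letters TGATGCAA on either strand, and GARS1 and YARS2 held another base at the free position. IARS1 and NARS1, which carry the same letters as AARS1 on one strand or the other, were at -0.12 and -0.078 on the log2 scale in NR, the second not past the test. A match is a description of the letters and not a bound site, and no binding was measured. The other motif searched, the E-box CACGTG, occurred in 0 of the 7 called genes, 1 of the other 9 cytosolic and 3 of 14 mitochondrial genes (21.4%: CARS2, EARS2 and MARS2), against 8.77% of all genes. CACGTG reads the same on both strands.

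ATF4 and 8 genes of its stress response were measured beside the synthetases. All 9 were called lower in both comparisons, where 10.3% of all genes in NR and 10.6% in SP were, and the median change was -2.31 in NR and -2.39 in SP on the log2 scale. This list was written with earlier results of these libraries known, so its direction is not independent evidence. Its summed level was 804 ± 24.6 CPM (SD, n = 3) in NR, 773 ± 8.69 in SP and 3278 ± 99.4 in Ab. ATF4 itself was at 335, 307 and 297 CPM in NR, 263, 280 and 298 CPM in SP, and 812, 758 and 789 CPM in Ab. It was 2.56-fold lower in NR and 2.86-fold lower in SP (adjusted p = 1.72e-20 and 1.11e-20).

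ASNS, the asparagine synthetase and a classic ATF4 target, was at 62.5, 65.2 and 59.7 CPM in NR, 69.9, 58.8 and 58.1 CPM in SP, and 374, 355 and 365 CPM in Ab, and was 5.96-fold lower in each group. Other genes share 49.3% of the ASNS exon bases. SESN2, a regulator of growth signalling that responds to amino acid shortage, was at 22.1, 21.4 and 19.9 CPM in NR, 24.6, 24.0 and 22.5 CPM in SP, and 281, 255 and 265 CPM in Ab. CHAC1, which breaks down glutathione, was at 8.45, 9.42 and 8.50 CPM in NR, 11.7, 9.21 and 9.50 CPM in SP, and 185, 171 and 170 CPM in Ab. The Ab libraries were thus the high ones for each of these genes. SESN2 was 12.8-fold lower in NR and 11.5-fold lower in SP, and CHAC1 20.5-fold and 17.6-fold lower (adjusted p between 2.27e-27 and 7.19e-25). The smallest changes of the list were those of ATF4 in NR (-1.36) and SLC7A11, a cystine transporter gene, in SP (-1.10). The part of ATF4 in the change of the synthetases was not tested.

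**Figure D4:**
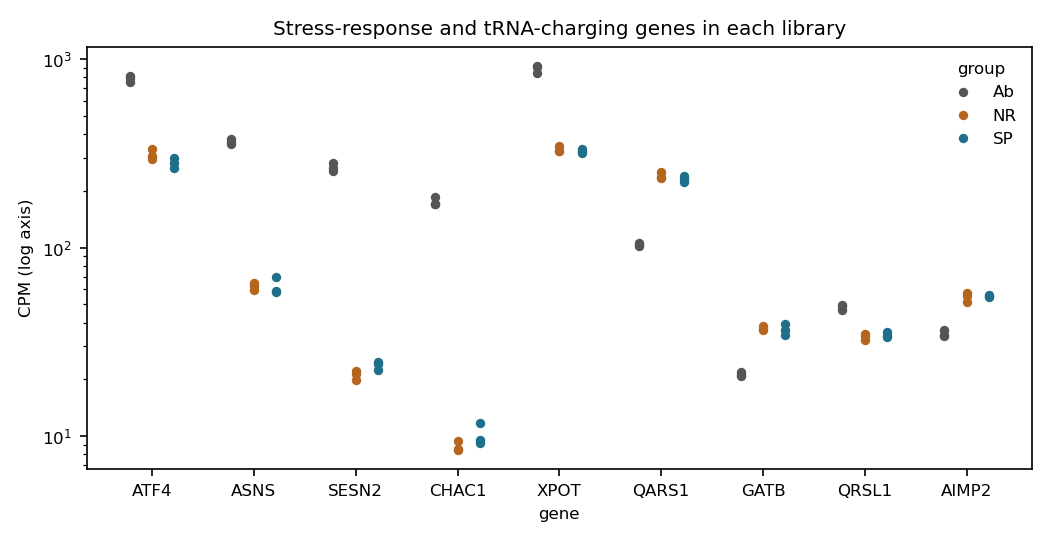
CPM (log axis) in each library of the Ab (grey), NR (orange) and SP (blue) groups for 4 genes of the ATF4 response, the tRNA exporter XPOT, QARS1, the amidotransferase subunits GATB and QRSL1, and the scaffold protein AIMP2. XPOT, QRSL1 and the stress genes are lower in NR and SP, and QARS1, GATB and AIMP2 are higher.

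Of 11 other genes of tRNA charging and handling, 4 were past the test as higher and 5 as lower in NR, and 3 and 6 in SP. Over all genes tested, 36.4% were past in each direction in NR, and 36.4% as higher and 36.6% as lower in SP, so these counts are near the background. XPOT, which exports tRNA from the nucleus, was at 344, 325 and 325 CPM in NR, 319, 334 and 327 CPM in SP, and 842, 912 and 916 CPM in Ab. It was 2.73-fold lower in NR and 2.78-fold lower in SP (adjusted p = 1.48e-21 and 4.94e-21). AARSD1, an editing protein related to AARS1, was the other one called lower in both, at 0.0625 to 0.736 CPM in NR and SP and 0.666 to 0.908 CPM in Ab, close to the 0.113 to 0.216 CPM that 3 counts make. Other genes share 34.2% of its exon bases.

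Mitochondria make glutaminyl-tRNA indirectly, in that EARS2 charges the tRNA with glutamate and the GatCAB enzyme converts it. The genes of that enzyme did not move together. GATB was at 38.3, 37.2 and 36.6 CPM in NR, 34.4, 39.4 and 36.6 CPM in SP, and 20.9, 21.1 and 22.0 CPM in Ab, a rise of 0.78 and 0.76 on the log2 scale. QRSL1 was at 34.8, 33.9 and 32.4 CPM in NR, 33.9, 33.3 and 35.5 CPM in SP, and 46.5, 49.8 and 49.0 CPM in Ab, a fall to log2 values of -0.55 and -0.53. GATC was past the test in NR (0.20, adjusted p = 0.0194) and not in SP (0.13, adjusted p = 0.134). Other genes share 47.6% of the GATC and 12.0% of the GATB exon bases.

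The factors that use charged tRNA changed less than 2-fold. Of 4 cytosolic elongation factors tested, 3 were past the test as higher and 1 as lower in each comparison, where 72.7% of all genes in NR and 73.0% in SP were past it in either direction. EEF1A1, which brings charged tRNA to the ribosome, was at 7334, 7553 and 7371 CPM in NR, 7133, 6848 and 7061 CPM in SP, and 6280, 6147 and 6398 CPM in Ab. EEF2, which moves the ribosome along, was at 2086, 2110 and 2187 CPM in NR, 2083, 2070 and 2116 CPM in SP, and 1652, 1504 and 1543 CPM in Ab, and EEF1D, a subunit of the exchange factor, was at 82.0, 85.3 and 81.2 CPM, 80.9, 78.4 and 79.5 CPM, and 120, 116 and 115 CPM. EEF1A1 and EEF2 were above all Ab libraries and EEF1D was below them. The log2 fold changes were 0.22 and 0.13 for EEF1A1, 0.42 and 0.39 for EEF2, and -0.53 and -0.58 for EEF1D, in NR and SP. Other genes share 34.0% of the EEF1D exon bases. EEF1G was at 0 counts in all libraries, which for a gene that every cell uses says only that it is listed at 0.

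Of 9 mitochondrial translation factors, 5 were past as higher and 3 as lower in NR, and 4 and 3 in SP. The shares over all genes, 36.4% in each direction in NR and 36.4% (up) and 36.6% (down) for SP, leave little room to read a direction from 9 genes. TUFM, the mitochondrial elongation factor that carries charged tRNA, was at 310, 303 and 313 CPM in NR, 308, 303 and 314 CPM in SP, and 255, 227 and 233 CPM in Ab, a rise of 0.35 and 0.34 on the log2 scale. The release factor genes MTRF1 and MTRF1L went down, with MTRF1 at 9.85, 10.4 and 9.81 CPM in NR, 9.15, 10.5 and 8.62 CPM in SP and 14.2, 17.4 and 15.3 CPM in Ab. For MTRF1L the levels were 12.6, 13.2 and 12.4 CPM in NR, 11.5, 11.8 and 12.9 CPM in SP, and 22.4, 20.2 and 19.9 CPM in Ab. Their log2 fold changes were -0.68 and -0.74 in NR and -0.76 and -0.81 in SP. For MTRF1L, 37.8% of the exon bases are shared with other genes.

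Between the NR and SP groups, 0 of the 34 members tested were past the adjusted p in edgeR, where 0.443% of all 14903 genes tested were past it. DESeq2 also put 0 past it. At an unadjusted p below 0.05 there were 5 members, where 12.9% of all genes were below it. Without VARS2 there were 4, MARS1, AARS2, LARS2 and TARS2. The smallest adjusted p of any member was 0.205, that of LARS2, which was at 78.8 ± 4.07 CPM in NR and 87.4 ± 4.27 CPM in SP. Over the 32 genes with readable counts, the log2 difference of NR minus SP ran from -0.15 to 0.079, and the approximate 95% intervals reached from -0.32 (MARS2) to 0.20 (WARS2). A p that misses the threshold does not show that both particles act alike, and these bounds give the difference that the libraries still allow. The NR libraries all lay below the SP libraries in 8 of the 32 genes, 6 of them mitochondrial, and all above in 0, where 9.72% of all genes lay below and 8.21% above.

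Markers of other cell types moved with the groups too. Of the 8 leukocyte markers, 4 were at or under 3 counts in every library. In NR, 2 of the 8 were tested, with 1 called higher and 1 lower, where 12.4% and 10.3% of all genes were. In SP the only one tested was called higher, where 12.6% of all genes were. CD14, a monocyte marker, had 8 to 21 counts in the Ab libraries, against 2 to 7 in the NR and 1 to 4 in the SP libraries, and was the one called lower in NR (log2 -1.52, adjusted p = 0.0201). PTPRC, the pan-leukocyte gene, was at 0 in 7 of the 9 libraries and had 1 count in each of the others. The 6 fibroblast markers summed to 105 to 119 CPM in NR and SP and to 17.8 to 45.4 CPM in Ab, and COL1A1 gave the most counts, with a mean of 33.4 CPM. Of the 6, the genes DCN, LUM and PDGFRB were past the test as higher in both groups, where 36.4% of all genes in each comparison were. The collagen genes COL1A1, COL1A2 and COL3A1 were not past it. COL1A1 was at 0.63 in NR and 0.72 in SP on the log2 scale, and COL1A2 at -3.56 and -1.81. The gene DCN was at 19.4 to 21.9 CPM in NR and SP and 0.335 to 0.792 CPM in Ab, and LUM at 36.9 to 39.1 CPM and 0.905 to 0.956 CPM. The endothelial markers summed to 20.8 to 24.3 CPM in NR and SP and to 3.53 to 5.07 CPM in Ab, nearly all of it from CDH5, with 2 of 4 at or under 3 counts everywhere. With 72.7% of all genes tested past the adjusted p in NR against Ab and 73.0% in SP against Ab, the synthetases changed amid a difference across the whole transcriptome. The part of these marker genes in the synthetase result was not tested.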

How the data were processed

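Poly-A RNA of SNU5 cells was sequenced in 9 libraries, 3 each of the NR, SP and Ab groups. According to the methods, the authors cleaned the reads, aligned them to a reference genome with HISAT2 (version 2.1.0) and made gene counts. The reporting summary names that genome as hg19. What was deposited are whole read counts for each Ensembl gene, without scaling between libraries. The build field of the labels names mm9, but the gene IDs are human. The counter is named differently in the methods and the reporting summary, and the annotation release and the use of strand were not given in the sources used here. The submitters' notes name DESeq2 1.16.1 for the calls of the study. Of 60880 IDs, 59858 were found in GENCODE 44 lifted to GRCh37, which gave names, positions, transcript lengths and the shares of exon bases, and at most 0.115% of any library lay in the 1022 not found. Those shares were taken over all genes of GENCODE 44, which may not all be genes that the authors counted.

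The 3 pairs of groups were compared with edgeR 4.0.16 in R 4.3.3, each on its own 6 libraries, with the robust quasi-likelihood test after TMM scaling and a filter on low counts (filterByExpr at a minimum count of 10 and a total of 15), adjusted by Benjamini-Hochberg over all genes tested. The SE of a log2 fold change was its size over the square root of F. Library totals were 13863155 to 26318227 counts, and 3 counts made 0.113 to 0.216 CPM. The chi-square per gene between 2 libraries of a group was 1.80 to 6.81, so none was a copy of another. On simulated counts with 200 genes of 15471 changed 2-fold, the steps recovered 79.5% for NR against Ab, 90% for SP against Ab and 79.5% for NR against SP, with 14, 14 and 17 unchanged genes past the adjusted p. Recovered means past the adjusted p, without the 2-fold minimum. Few genes changed in the simulation, equally in each direction, while 72.7% and 73.0% of genes were past the adjusted p in NR and SP against Ab. It therefore does not show how the steps do where most genes change.

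The members and the other lists and motifs were chosen with earlier results of these data known. Genes given with all values are the 6 cytosolic and 5 mitochondrial members of largest mean change, the largest opposite change of each compartment, the genes serving both compartments, and up to 3 of each other list by p in NR against Ab. SARS1, MARS1, AARS1, IARS2 and the remaining members are given in short, and ATF4, AARSD1, GATC, SLC7A11 and the markers CD14, CDH1, CDH5, CLDN4, CLDN7, DCN, LUM, PDGFRB, COL1A1, COL1A2, COL3A1, PTPRC, KRT19 and TFF3 were named after their values were seen. VARS1 and VARS2, named by this rule, are given as counts because of the neighbouring genes. The alternatives were DESeq2 1.42.0, RLE scaling, other filters on low counts (at least 1 count in total, or 10 in every library), glmTreat against 1.5-fold, other fold minimums, a common fit of the 9 libraries, a block for the replicate number, and each library left out in turn. Leaving out VARS1, VARS2 and SARS2 was added after seeing the data. The summed level of the leukocyte markers is not reported here. The promoter sequences are from RefSeq (GRCh38.p14). Tables and figures were made with Python 3.11.15, pandas 2.3.3, numpy 2.4.6 and matplotlib 3.10.9.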

Additional observations from a re-analysis of the deposited data

How the results depend on the processing

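The cytosolic counts of 8 genes called lower held in both comparisons under every alternative run except a fold minimum of 1.5, which gave 10 in NR against Ab, and no fold minimum, which gave 13 in NR against Ab and 12 in SP against Ab. Without that minimum, the cytosolic genes called higher went from 1 to 3 in NR and 4 in SP, the mitochondrial genes called higher from 0 to 9 in NR and from 2 to 10 in SP, and all genes called from 3409 to 10916 in NR and from 3502 to 11002 in SP. At a minimum of 1.5-fold, the mitochondrial genes called higher were 4 in NR and 5 in SP, and all genes called were 6348 and 6385. With glmTreat against 1.5-fold, 2 mitochondrial genes were called higher in NR, and with at least 10 counts in every library 1 was in SP. With each library left out in turn, the mitochondrial genes called higher ranged from 0 to 1 in NR and from 1 to 2 in SP, since AARS2 and TARS2 lie at the 2-fold line. Mitochondrial genes called lower went from 0 to 1 in NR without NR library 3 and in SP without SP library 1, 2 or 3 or Ab library 2 or 3, with at least 1 count in total, and at a minimum of 1.5-fold. With no fold minimum, 2 mitochondrial genes were called lower in NR and 2 in SP. In each fit with the 2-fold minimum the gene was SARS2 or VARS2, on few counts. In NR against SP, the genes past the adjusted p went from 66 to 131 with DESeq2, 328 with at least 1 count in total and 0 with glmTreat, and ranged from 10 (without NR library 2) to 188 (without SP library 3) with a library left out. The cause of these shifts was not tested, and the synthetases past it stayed at 0 in every one of these fits.

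Among single genes, the log2 fold change against Ab of VARS1 ran from -2.17 to 0.51 in NR and from -2.08 to 0.59 in SP with a library left out, that of VARS2 from -0.20 to 0.12 in NR, and that of AIMP1 from -0.13 to 0.025 in NR and from -0.11 to 0.045 in SP. Of 751 values of named genes under an alternative, 705 kept their direction and side of the threshold, 29 were no longer past it, 7 came past it and 10 turned in direction. RLE scaling or DESeq2 moved the median of all genes by at most 0.0044 on the log2 scale.

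The replicate numbers were not taken to pair the libraries. Deviations of same-numbered libraries correlated at -0.032 to 0.028, and with all 3 numbers the library that correlated best had the same number for 1 of 6 libraries in NR against Ab, 6 of 6 in SP against Ab and 3 of 6 in NR against SP, a hint from the data and not from the design. With the replicate block, 3414 genes were called in NR against Ab, 3493 in SP against Ab and 51 were past in NR against SP, and every count of synthetases was the same. Few counts limit the precision for VARS2 and SARS2, at most 22 and 11.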
